A study of Mus musculus with 4 samples.

Results

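Cytosolic ribosomal proteins are the protein subunits of the ribosomes that translate nuclear-encoded messages. Their transcripts were examined in cultured mouse skin melanocytes, the pigment cells of the skin, of mice that have or lack the aryl hydrocarbon receptor (AhR), a transcription factor activated by dioxins and by products of ultraviolet light. The genes were chosen by name, as large subunit (Rpl) and small subunit (Rps) genes with a number, plus Rpsa and the stalk genes, leaving out the Rps6 kinases and pseudogenes. Each needed a probe set that the array annotation gives to a single gene, and the probe set with the highest mean signal stood for the gene. This gave 45 genes of the 12393 on the array, 24 of the large and 21 of the small subunit. Of these, 43 lay among the 7436 genes bright enough to be tested. Rps27a, Rplp1 and Rpl5 had no probe set given to a single symbol and are not analysed here.

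Wild-type cultures came from 2 female C57BL/6 mice and knockout cultures from 2 female mice of the AhRtm1Bra strain, in which exon 2 of Ahr is deleted. The deletion is carried by every cell of the animal, and any strain difference apart from it cannot be told apart from the loss of the receptor. Epidermal cells of tail skin were grown for 6 to 8 weeks in a serum-free melanocyte medium, so the cultures began as a mixture of skin cells. Every array holds RNA of a different mouse, which makes the 2 replicates per group biological ones.

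Each ribosome pairs a small subunit, which reads the message, with a large subunit, which joins the amino acids. Messages for ribosomal proteins commonly begin with a run of pyrimidines, through which mTORC1 and the RNA-binding protein Larp1 control their translation. In mice, partial loss of certain ribosomal proteins darkens the skin: p53 is stabilised in keratinocytes, which then release more Kit ligand, a growth factor for melanocytes.

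Values are linear signal intensities of Affymetrix arrays, scaled so that the trimmed mean of every array lay between 500.2 and 500.3. Knockout array 2 stood apart in its Gapdh and actin control probe sets. Its ratio of the 3' to the 5' Gapdh control was 11.9, against 1.98 to 2.85 on the other arrays, and its ratio for actin was 28.0, against at most 8.71. Its highest signal of any probe set was 38759, against 23507 to 25679 elsewhere. For Ahr itself, the brighter probe set gave signals of 825 and 874 without the deletion and 241 and 843 with it; its place relative to the deleted exon was not analysed here. Of 14 melanocyte markers, 12 were bright enough to be tested (Dct, a pigment enzyme, read 16814 to 32201 over the arrays), and all 10 endothelial markers were as well (Emcn read 7391 and 10176 in wild type, 3321 and 1041 in knockout).

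Annotated start sites were searched for the pyrimidine run. RefSeq (GRCm38.p6) promoter sequences matched 39 of the 45 genes, and 31 tested genes had a single annotated start. The windows below hold 10 bases before the start and the first 15 transcribed bases, 5' to 3' on the gene's strand. They belong to the 5 genes of those 31 with the highest and then the 5 with the lowest difference between genotypes. Capitals mark a C followed by at least 4 pyrimidines that begins within 5 bases of the start. A run that opens further upstream, as at Rpl14, is capitalised only from the first such C.
Rps10, chr17:27635230-27635254, minus strand: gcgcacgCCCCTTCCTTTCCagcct
Rpl37, chr15:5116603-5116627, plus strand: cctgggcggaagcttatccacagga
Rps15, chr10:80292421-80292445, plus strand: cagagctcgcgataactgcgcaagc
Rpl27a, chr7:109519185-109519209, plus strand: cgtgagCTCCTCCCTTTTCCCTTTC
Rpl27, chr11:101442235-101442259, plus strand: ctgttcctgtctgctgctcgtgctg
Rpl11, chr4:136053379-136053403, minus strand: ccataaggccacggggccggaagtc
Rpl14, chr9:120571507-120571531, plus strand: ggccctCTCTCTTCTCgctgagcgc
Rps2, chr17:24720053-24720077, plus strand: gtcgagatctcgcgCTTCTTggagc
Rpl12, chr2:32961702-32961726, plus strand: agcaggatccgtCTTTTCggctttc
Rps27, chr3:90213634-90213658, minus strand: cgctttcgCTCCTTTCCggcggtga
The run was present in 2 of the 5 windows with the highest and 4 of the 5 with the lowest differences, with the longest, 20 bases, at Rpl27a. Over all RefSeq entries of these genes it was found in 20 of 47 (42.6%), against 18.6% of the 21262 entries of protein-coding genes. The 19 tested genes with the run at an annotated start had a median difference of 0.47 and the other 18 had 0.53, on the log2 scale used throughout. Runs with no such C within 5 bases of the annotated start were not counted. Whether transcription begins at the annotated starts in these cells was not tested, so these shares need not be those of the messages themselves.

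All 43 tested ribosomal protein genes had a higher mean on the knockout arrays, and none passed the test as a single gene. Above 0 lay 50.4% of all tested genes. The median difference, knockout minus wild type on the log2(signal + 16) scale, was 0.52, a ratio of 1.43, while the median over all 7436 tested genes was 0.0071. Single differences ran from 0.042 for Rps27 to 0.98 for Rps10. In limma with Benjamini-Hochberg adjustment over all tested genes, 0 of the 43 were past an adjusted p of 0.05, where 0.82% of tested genes were. At an unadjusted p under 0.05, 10 were higher (7.61% of tested genes). The smallest adjusted p in limma was 0.12, for Rps15, whose p ranked 495 of 7436. In 32 genes both knockout signals exceeded both wild-type signals, which held for 28.6% of tested genes. In the other 11 the groups overlapped, and in 0 did both knockout signals lie below. In such bulk RNA, more cells of a type and more RNA per cell cannot be told apart.

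**Figure D1:**
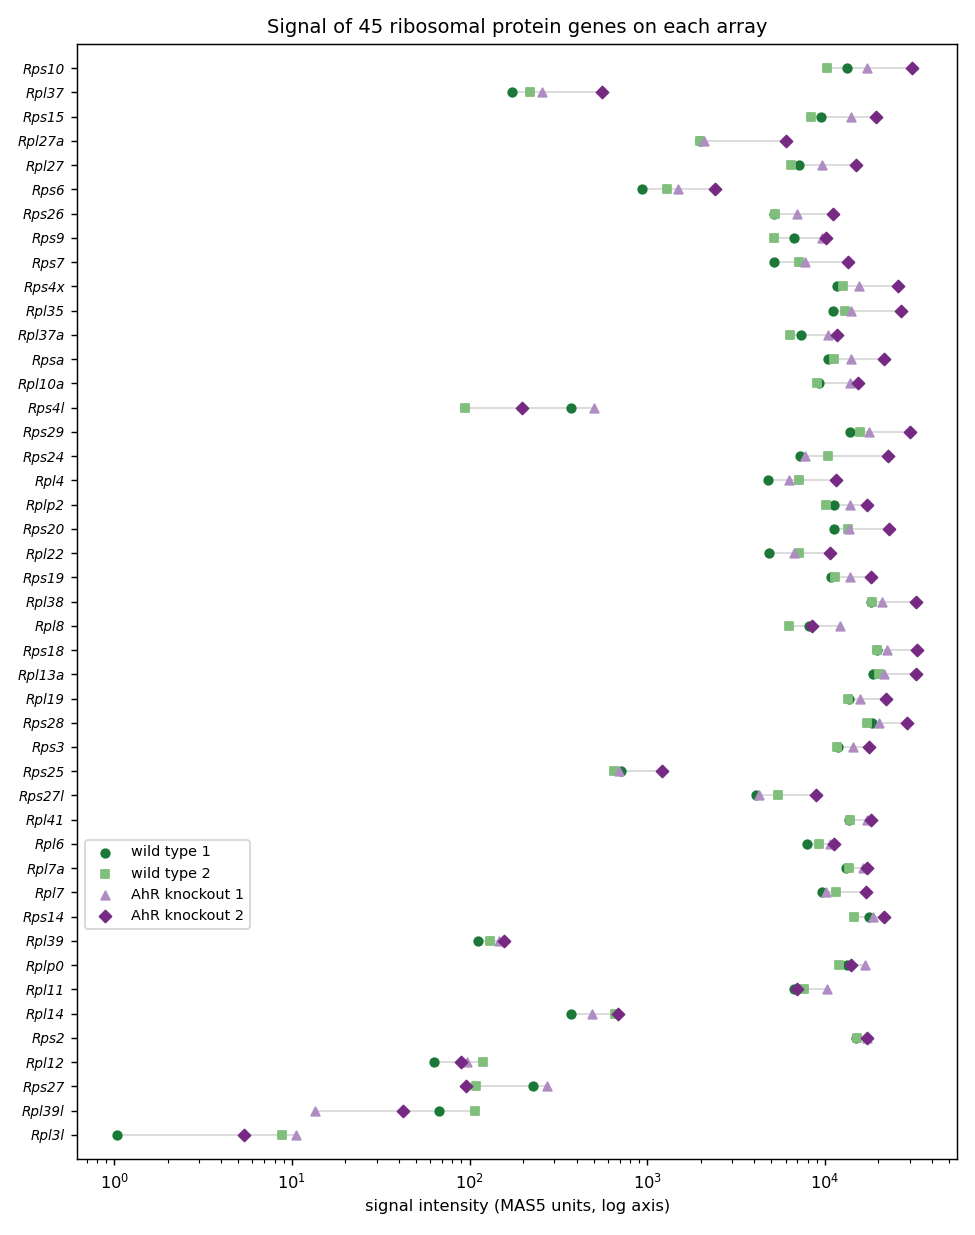
Signal intensity (log axis) of each of the 45 ribosomal protein genes on the 4 arrays, with a point for each mouse and genes ordered by their difference between genotypes. Knockout array 2 gave the highest of the 4 signals in 36 of the 43 tested genes, and the 2 genes that were not tested stand at the bottom.

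Large subunit genes differed by a median of 0.48 over 22 tested genes. Rpl37, a small zinc-binding protein of the large subunit, was represented by a dim probe set with signals of 173 and 218 in wild type, against 257 and 558 in knockout. Both knockout signals were above both wild-type signals, the second by far more. Its difference was 0.91 (SE 0.43, limma adjusted p = 0.26, n = 2 against 2). Rpl27a read 1976 and 1982 in wild type, against 2091 and 6060 in knockout. The wild-type arrays lay close together and knockout array 1 barely above them, so the difference of 0.84 (SE 0.47) rests on knockout array 2. Rpl27, which is a separate gene despite its name, read 7167 and 6436 against 9641 and 14864. Its groups were apart on both knockout arrays, with a difference of 0.82 (SE 0.30). Its limma adjusted p was 0.17 with n = 2 against 2.

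Among the brightest large subunit genes, Rpl13a, also known as part of an interferon-activated translation inhibitor, read 18537 and 20020 in wild type, against 21546 and 32566 in knockout. Rpl38, which helps ribosomes translate Hox messages, read 18158 and 18360 against 20922 and 32486. In both genes the groups were separated and knockout array 1 stood only a little above wild type. The differences were 0.46 (SE 0.25) and 0.51 (SE 0.26). Rpl7 read 9666 and 11538 in wild type, against 10191 and 17120 in knockout, and Rpl7a read 13200 and 13590 against 16434 and 17241. The groups overlapped in Rpl7 and were separated in Rpl7a.

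The lowest differences of the large subunit belonged to Rpl12, Rpl14 and Rpl11. Rpl11, which binds Mdm2 and stabilises p53 when ribosome assembly fails, read 6710 and 7630 in wild type, against 10286 and 6938 in knockout. Here knockout array 1 was the high one and knockout array 2 lay among the wild-type values, the reverse of the usual order in these genes. Rpl14 read 371 and 660 against 486 and 683, and Rpl12, part of the stalk base, read 62.9 and 119 against 96.4 and 89.4. Both were dim, and their wild-type arrays, 0.81 and 0.77 apart on the log2 scale, were further apart than the groups. Their differences were 0.21 (SE 0.41) and 0.079 (SE 0.38), and that of Rpl11 was 0.24 (SE 0.30).

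The stalk of the large subunit recruits the elongation factors. Rplp0, its anchor, read 13272 and 11964 in wild type, against 16847 and 13943 in knockout. Rplp2, which binds Rplp0 as part of a dimer, read 11290 and 10183 against 13868 and 17240. The groups were separated in both, with knockout array 1 the higher in Rplp0 and knockout array 2 in Rplp2. The differences were 0.28 (SE 0.25) and 0.53 (SE 0.25).

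Small subunit genes differed by a median of 0.61 over 21 tested genes. Rps10, which sits near the entry of the message, had the highest difference of all, with 13322 and 10244 in wild type, against 17236 and 30953 in knockout. The groups were separated on both knockout arrays, and the gap between these arrays exceeded that between wild type and knockout array 1. The difference was 0.98 (SE 0.31), a ratio of 1.98 with a limma adjusted p of 0.13 (n = 2 against 2). Of its other 5 probe sets, the 4 bright ones differed by 0.88 to 1.25 and the dim one by -0.50. Rps15, a protein of the head of the small subunit, read 9483 and 8352 against 13951 and 19339. It too was separated on both knockout arrays, with a difference of 0.88 (SE 0.27).

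Rps6, the substrate of the S6 kinases downstream of mTORC1, read 929 and 1283 in wild type, against 1493 and 2395 in knockout, a difference of 0.78 (SE 0.39). Rps26, which contacts the message upstream of the start codon, read 5190 and 5258 against 6993 and 11109. Rps9, a protein that joins early in assembly, read 6714 and 5167 against 9665 and 10172. In all of them both knockout arrays lay above both wild-type arrays, and in Rps9 the knockout arrays lay close to each other. Rps26 differed by 0.75 (SE 0.31) and Rps9 by 0.75 (SE 0.28), with limma adjusted p of 0.22 and 0.18 (n = 2 against 2). Rpsa, a small subunit protein also described as a laminin receptor, read 10362 and 11306 against 13970 and 21620. It was separated, with a difference of 0.68 (SE 0.28).

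The brightest small subunit genes were Rps18, Rps28 and Rps29. Rps18 read 19552 and 19666 in wild type, against 22308 and 33153 in knockout, Rps28 18372 and 17133 against 20188 and 28983, and Rps29 13856 and 15742 against 17666 and 30282. In each, the wild-type arrays lay close together, knockout array 1 a little higher and knockout array 2 well above. The differences were 0.47, 0.45 and 0.65, with SE of 0.25, 0.25 and 0.28. Rps14 read 17763 and 14558 against 18557 and 21620, and its difference was 0.32 (SE 0.24). Rps2, a known substrate of an arginine methyltransferase, read 14970 and 15191 against 17316 and 17182. In Rps2 both groups were tight and separated, and its difference of 0.19 (SE 0.23) was among the lowest.

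Genes with the suffix l are paralogs of another ribosomal protein gene. Rps27l, a p53 target in other settings, read 4109 and 5451 in wild type, against 4273 and 8897 in knockout, and its parent Rps27 read 227 and 109 against 272 and 95.4. The groups overlapped in both genes, and in Rps27 the arrays numbered 1 were high in both genotypes. The differences were 0.38 (SE 0.38) and 0.042 (SE 0.51). Rps4l read 372 and 94.5 against 498 and 198, with the wild-type arrays further apart than the groups and a difference of 0.68 (SE 0.60). Its parent Rps4x, an X-linked gene, read 11618 and 12708 against 15573 and 25910. Rps4x was separated and differed by 0.72 (SE 0.28, limma adjusted p = 0.20, n = 2 against 2).

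Rpl39l, a form of Rpl39 known from testis, was below the signal filter, with 67.2 and 108 in wild type, against 13.5 and 42.3 in knockout. It was the only one of the 45 genes with both knockout signals below both wild-type signals, at levels where no test was made. Rpl39 itself was represented by a dim probe set with 112 and 131 against 146 and 156. Rpl3l, the striated muscle form of Rpl3, read between 1.04 and 10.5 on the 4 arrays and was not tested either.

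**Figure D2:**
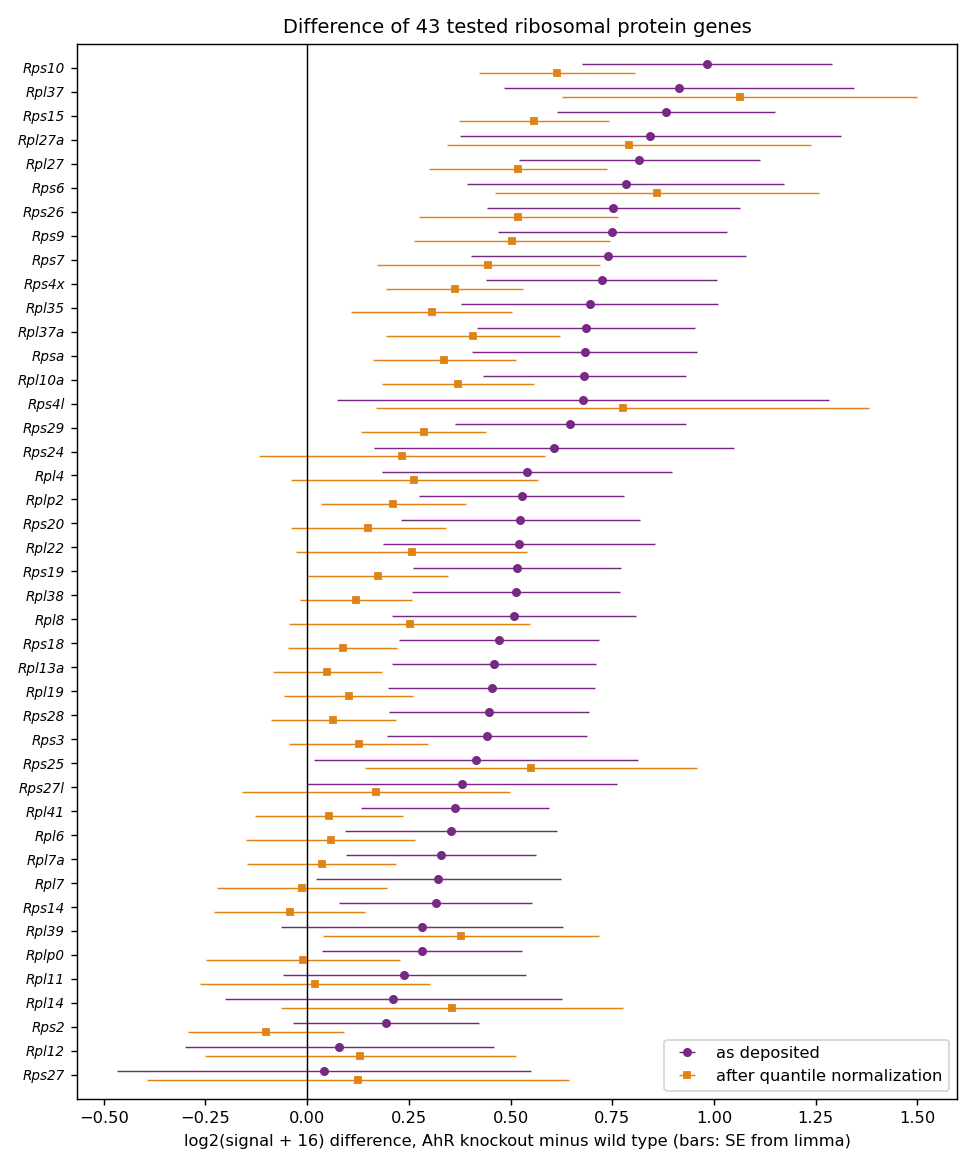
Difference in log2(signal + 16), knockout minus wild type, for the 43 tested genes, with bars for the limma SE (n = 2 against 2 arrays), as deposited (circles) and after quantile normalization (squares). All circles lie to the right of 0, from 0.042 to 0.98, while 4 of the squares lie to the left of it.

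The knockout arrays differed from each other by a median of 0.52, as much as the genotypes did. Against the wild-type mean, the median of the 43 genes was 0.29 on knockout array 1 and 0.76 on knockout array 2. On array 1, 39 genes lay above the wild-type mean, the exceptions being Rps24, Rps27l, Rpl7 and Rpl14. On array 2, 41 did, the exceptions being Rpl11 and Rps27. Signals were highest on knockout array 2 in 36 genes, on knockout array 1 in 6 and on a wild-type array in 1, Rpl12. They were lowest on wild-type array 1 in 27 genes, on wild-type array 2 in 15 and on a knockout array in 1, Rps27. The summed signal of the 45 genes was 3.80% and 3.90% of the summed signal of all genes in wild type, and 4.66% and 5.99% in knockout.

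Leaving out either knockout array moved the count of genes past the test, the remaining array being assumed to vary like the wild-type arrays. Without knockout array 1 the median was 0.76 and 28 of the 43 genes were higher past an adjusted p of 0.05 in limma, as were 6.97% of tested genes. Without knockout array 2 the median was 0.29, 39 genes were higher and 2 were past it (2.9% of tested genes). These were Rps4l and Rpl8, genes whose signal was higher on knockout array 1. Without wild-type array 1 or 2 the median was 0.48 or 0.56, and 0 genes were past the threshold (0.578% and 0.0672% of tested genes).

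**Figure D3:**
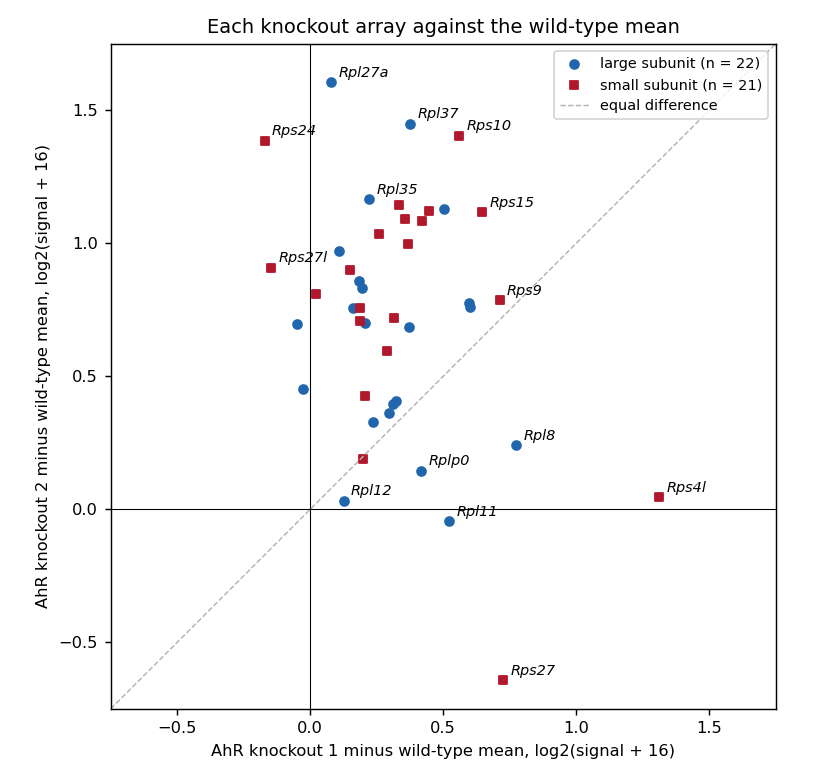
Difference of each knockout array from the wild-type mean in log2(signal + 16), knockout 1 on the horizontal and knockout 2 on the vertical axis, for 22 large subunit (circles) and 21 small subunit genes (squares). Most points lie above the dashed line of equal difference: 36 genes were higher on knockout array 2 than on knockout array 1.

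Ribosomal protein genes gave some of the strongest signals of the array, and strong signals as a whole were higher in knockout, above all on array 2. Brightness of different probe sets does not measure relative abundance, but it places genes on the same part of the scale. Of the 43 genes, 33 were among the 372 brightest tested genes. Of those 372, 76.3% had a higher knockout mean and 53.2% were separated upwards. The 33 ribosomal protein genes differed by a median of 0.52, and 28 of them were separated upwards. The other 339 genes of that brightness differed by a median of 0.28, with 251 above 0 and 170 separated upwards. On knockout array 2 these medians were 0.76 and 0.41, and on knockout array 1 0.31 and 0.16. The 10 dimmer ribosomal protein genes had a median of 0.40, with 4 separated upwards (28.6% of tested genes).

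**Figure D4:**
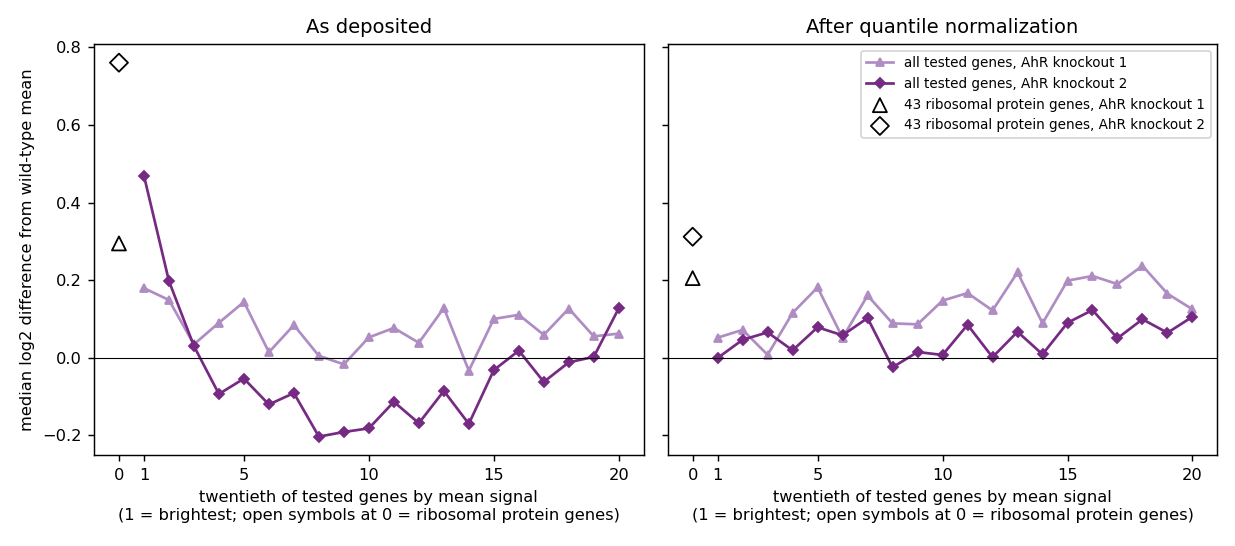
Median difference of each knockout array from the wild-type mean, log2(signal + 16), over all tested genes in 20 bins of mean signal (1 is the brightest), as deposited (left) and after quantile normalization (right). Open symbols at 0 give the medians of the 43 ribosomal protein genes. As deposited, the line of knockout array 2 reaches 0.47 in the brightest bin, and after normalization it ends near 0.

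Quantile normalization, which gives every array the same distribution of signals, lowered the median difference without bringing it to 0. After it, 39 of the 43 genes were higher (53.9% of tested genes), with a median of 0.25, a ratio of 1.19, against 0.065 over all tested genes. In limma 0 were past an adjusted p of 0.05 (0.296% of tested genes), 4 were higher at an unadjusted p under 0.05 (9.44%), and 22 were separated upwards (32.2%). The 4 were Rps10, Rpl37, Rps15 and Rpl27, with limma adjusted p from 0.15 to 0.23 (n = 2 against 2). The knockout arrays came closer to each other, with medians of 0.21 on array 1 and 0.31 on array 2. Below 0 lay Rps2 at -0.10, Rps14 at -0.043, Rpl7 at -0.013 and Rplp0 at -0.010, all of them bright. In the brightest 372 genes after normalization, 52.7% lay above 0 and 26.1% were separated upwards. The 33 bright ribosomal protein genes then had a median of 0.21, and the other 339 genes 0.0018. The 10 dimmer ribosomal protein genes had 0.46, all of them above 0. The highest were Rpl37 at 1.06 (SE 0.44), Rps6 at 0.86 (SE 0.40) and Rpl27a at 0.79 (SE 0.45).

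Several genes were measured by more than a single probe set, and the others did not always follow. Of 51 further probe sets for 22 genes, 37 were above the signal filter, and 32 of those were higher in knockout and 5 lower. The bright probe set of Rps20 read 11207 and 13480 in wild type, against 13642 and 22924 in knockout, a difference of 0.52. A dim one read 131 and 111 against 72.5 and 112, a difference of -0.36, and the dimmest gave -0.66. Rps24 gave 0.61 for the brightest probe set, and -0.66 and 0.077 for its dim ones. Not only dim probe sets departed: a further probe set of Rpl7 read 3328 and 3917 against 2509 and 3407, a difference of -0.30. Probe sets that share probes with other transcripts (suffix _x_at) represented 16 genes, whose median was 0.52. The other 27 tested genes had the same median of 0.52. A further 102 probe sets carried a ribosomal protein name together with other symbols, so no gene is named from them. Above the filter lay 91, of which 85 were higher and 6 lower, with a median of 0.50 as deposited and 0.25 after quantile normalization.

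Values for the rest of the translation machinery were mixed. Of the elongation, initiation, other oligopyrimidine, assembly, mTORC1 and Myc, and p53 response genes, 0 were past an adjusted p of 0.05 in limma. Elongation factors carry the ribosome along the message. Of 9 tested genes listed with them, 8 were higher, with a median of 0.23 (6 higher and 0.18 after quantile normalization). The list holds 2 genes named after these factors that do not do this, Eef1e1 (-0.35) and Eef2k (0.094). Eef1d read 4876 and 3976 in wild type, against 6341 and 7961 in knockout. Of 32 initiation factors, 16 were higher and 16 lower as deposited, with a median of 0.0042, and 13 higher and 19 lower after quantile normalization, with a median of -0.24. Eif3f, a subunit of the scaffold eIF3, read 8247 and 6400 against 11825 and 13471, while the helicase gene Eif4a2 read 4020 and 3213 against 2183 and 1508. Groups were separated upwards in 4 of 9 elongation and 6 of 32 initiation factors (28.6% of tested genes) and downwards in 0 of 9 and 7 of 32 (26.5% of tested genes). Of 14 tested genes outside the ribosome known for oligopyrimidine messages, 9 are among these factors. Of the other 5, Npm1 and Nap1l1 were lower, at -0.85 and -1.09, and stayed so after quantile normalization. Tpt1 (0.36), Vim (0.24) and Hnrnpa1 (-0.0052) turned sign under it.

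Genes of ribosome assembly and ribosomal RNA synthesis were lower in 25 and higher in 18 of 43 as deposited, with a median of -0.16, and lower in 23 and higher in 20 after quantile normalization, with a median of -0.024. Nop10, a small protein of the pseudouridylation complex, read 4706 and 4185 in wild type, against 6028 and 10858 in knockout. Efl1, the factor that frees new large subunits from Eif6, read 320 and 318 against 177 and 157. The mTORC1 and Myc regulators had 8 higher and 10 lower of 18, with a median of -0.20 as deposited and -0.077 after quantile normalization. Myc itself read 414 and 539 against 519 and 274, with overlapping groups. The smallest p-values of that list in limma belonged to Mycn (-1.30), Lamtor1 (0.82), Max (-1.50) and Deptor (-0.93). Of 7 tested genes on the p53 response to ribosome faults, 3 were higher and 4 lower, as deposited and after quantile normalization. Mdm2, which degrades p53 and is also its target, read 882 and 1150 against 316 and 218. Cdkn1a, another p53 target, read 5932 and 4017 against 7811 and 8722. Their differences were -1.88 (SE 0.38, limma adjusted p = 0.053, n = 2 against 2) and 0.76 (SE 0.31). Phlda3 (0.71) and Sesn2 (0.69) were higher as well, and Mdm4 (-1.28) and Ccng1 (-0.35) lower. Kitl, the Kit ligand gene, read 145 and 463 in wild type, against 41.7 and 70.9 in knockout.

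Mitochondrial ribosomal proteins, a list chosen after the values were seen, were higher in 62 of 74 tested genes (50.4% of all tested genes). The median was 0.44, and 0 genes were past the limma threshold (0.82% of all tested genes). Groups were separated upwards in 45 and downwards in 1 (28.6% and 26.5% of all tested genes). The mitochondrial medians were 0.47 on knockout array 1 and 0.40 on knockout array 2, so the arrays were alike here. The cytosolic genes gave 0.29 and 0.76. After quantile normalization the mitochondrial median was 0.58 and the cytosolic one 0.25.

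**Figure D5:**
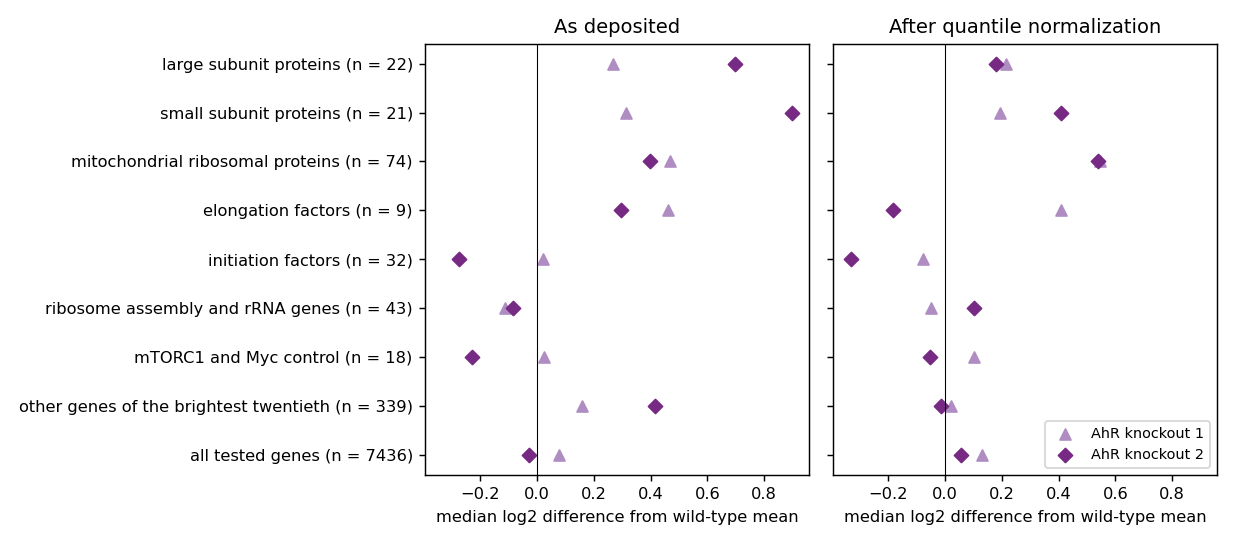
Median difference from the wild-type mean on knockout array 1 (triangles) and knockout array 2 (diamonds), log2(signal + 16), for ribosomal protein genes by subunit, related gene lists and all tested genes, as deposited (left) and after quantile normalization (right). The large and small subunit genes lie at 0.27 and 0.31 on array 1 and at 0.70 and 0.90 on array 2 as deposited.

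Mouse mutants with dark or otherwise altered pigmentation have been described for Rps19, Rps20, Rpl27a, Rps7 and Rpl38, among others. All 5 were higher in knockout with separated groups, against 28.6% of all tested genes and 53.2% of the brightest 372, and their median was 0.52. After quantile normalization 3 of the 5 were separated, against 32.2% of all tested genes and 26.1% of the brightest 372, and the median was 0.17. Rps19 read 10784 and 11402 in wild type, against 13786 and 18264 in knockout, and Rps7 read 5160 and 7162 against 7676 and 13470. The differences were 0.52 (SE 0.26) and 0.74 (SE 0.34). Of the ribosomal protein genes mutated in Diamond-Blackfan anaemia, an inherited failure of red cell production, 11 were tested. All 11 were higher, as were 50.4% of all tested genes and 76.3% of the brightest 372. Their median was 0.65 and 8 were separated, against 28.6% of all tested genes and 53.2% of the brightest 372. In the whole set of 43 ribosomal protein genes, 43 were higher and 32 separated. After quantile normalization 5 of the 11 were separated, against 32.2% of all tested genes and 26.1% of the brightest 372, and the median was 0.29. The smallest p-values of that list in limma belonged to Rps10, Rpl27, Rps26 and Rps29.

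Markers of several cell types differed between the genotypes as well. Endothelial markers were lower in 9 of 10 genes, with a summed signal of 16375 and 19231 in wild type, against 8992 and 3848 in knockout. The 13 measured melanocyte markers, including those too dim to be tested, summed to 92008 and 69683 in wild type, against 106765 and 133132 in knockout. Of the 12 tested, 10 were higher (8 after quantile normalization). The 2 lower were Kit, with 1235 and 900 against 558 and 273, and Mitf, with 2771 and 2644 against 1668 and 2462. Fibroblast markers were lower in 4 of 5 tested genes, with Col3a1 alone past the limma threshold. All 9 measured ones, tested or not, summed to 3074 and 5597 against 2946 and 2052. Leukocyte markers were higher in 4 of 5 tested genes. All 10 measured ones, tested or not, summed to 1828 and 1858 against 4126 and 3591. Lyz2 made up most of the gap in that sum, with 669 and 881 against 2628 and 2776. Cd68 read 819 and 578 against 808 and 208, and Ptprc, which marks leukocytes in general, read 2.06 to 26.1. Keratinocyte markers were higher in 3 and lower in 1 of 4 tested genes. All 10 measured ones, tested or not, summed to 574 and 491 against 1983 and 447. Krt5, Krt6a, Krt14 and Krt17 were high on knockout array 1 alone. Krt10 was highest on knockout array 2 (157) and Dsp on wild-type array 1 (367), and Krt1 read 0.86 to 5.44. The poly-A spikes set knockout array 2 apart, not the genotypes. They read 0.86 and 1.16 times the wild-type mean in wild type, 1.18 times on knockout array 1 and 2.61 times on knockout array 2. The 5' control for 18S ribosomal RNA was highest on knockout array 1, with 2683 and 864 in wild type, against 6664 and 1062 in knockout. The part of these differences in the ribosomal protein signals was not tested.

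The sequence upstream of the starts was searched on both strands for short motifs, over 250 bases. GCGTG, the core of the AhR response element, was present in 24 of the 47 entries of these genes (51.1%), against 33.8% of protein-coding entries. The 21 tested genes with it had a median difference of 0.54 and the 16 without it 0.49. CCGGAAG, a motif of ETS family factors, was present in 34.0% against 8.98%, CACGTG, the E-box bound by Myc, in 10.6% against 6.63%, and AAGATGGC, a YY1 motif, in 4.26% against 1.50%. GGGCGG, the Sp1 box, was as common as elsewhere, at 42.6% in both. The upstream sequences of the genes with the highest and the lowest difference follow, 5' to 3' on the gene's strand, with GCGTG and CCGGAAG on either strand in capitals.
Rps10, chr17:27635245-27635494, minus strand: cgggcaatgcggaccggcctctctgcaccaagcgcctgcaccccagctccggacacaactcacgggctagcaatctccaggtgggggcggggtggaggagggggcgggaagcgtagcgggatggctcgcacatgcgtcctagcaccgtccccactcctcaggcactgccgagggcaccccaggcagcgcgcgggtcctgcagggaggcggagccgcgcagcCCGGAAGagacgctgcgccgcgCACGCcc
Rps27, chr3:90213649-90213898, minus strand: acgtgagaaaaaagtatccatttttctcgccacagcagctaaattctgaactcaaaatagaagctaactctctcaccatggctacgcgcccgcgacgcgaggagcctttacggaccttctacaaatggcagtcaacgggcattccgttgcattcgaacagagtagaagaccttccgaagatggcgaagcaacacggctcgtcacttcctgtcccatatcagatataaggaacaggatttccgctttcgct
Rps10 holds 1 match of each capitalised motif, the GCGTG core read on the opposite strand, and 2 Sp1 boxes. Rps27 holds neither capitalised motif and 1 match of the YY1 motif. Such matches describe the letters of the window and do not show that a factor binds there.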

How the data were processed

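RNA of 4 melanocyte cultures, 2 per genotype, was amplified and biotinylated for Affymetrix arrays of a single colour, per the labels' protocols. The authors deposited linear signal intensity from MAS5, named without a version per the submitters' processing notes. The settings of MAS5 and its detection calls were not given in the sources used here. Arrays carry no count depth, and their number limits the precision.

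Of 22690 probe sets, 64 were controls, 20380 had 1 gene symbol, 691 several and 1555 none. Symbols were updated by gene identifier to RefSeq GRCm38.p6, which held 20351. All 4 value columns were used and 0 left out. Each gene was represented by its brightest probe set, and the top 60% of genes by mean log2(signal + 16) were tested (lowest mean signal 76.1). The pseudocount understates the folds of dim genes. Groups were compared over all 7436 tested genes in R 4.3.3 with limma 3.58.1 (lmFit and trended eBayes). P-values were adjusted by Benjamini-Hochberg, with a threshold of 0.05. The limma script was checked on simulated data. Quantile normalization was repeated on the same probe sets. Figures used matplotlib 3.10.9 in Python 3.11.15.

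The members and gene lists were chosen with earlier results of these data known, so nothing here is independent support for a pattern already seen, and no test was made over a list. Genes were named by rule: the 10 highest and 10 lowest differences, the 6 brightest, the stalk, l-suffix paralogs with their parents, Rpsa, genes below the filter, pigmentation genes, Rps6 and Rpl11, and up to 4 genes by smallest p from each list. Rpl8, Dct, Myc, Ptprc, Krt1 and Rps24 were added after their values were seen. So were Krt14, Krt17, Kit, Mitf, Phlda3, Sesn2, Ccng1, Eef1e1 and Eef2k. Promoters of 6 genes had no RefSeq entry in the table used, and a description by protein length was not run.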

Additional observations from a re-analysis of the deposited data

How the results depend on the processing

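The count of higher genes and of separated genes stayed within 1.5 times its value under every alternative run (array medians made equal, pseudocounts, filters, mean of probe sets, probe sets without _x_at or _s_at, eBayes without trend or robust, the block and each array left out). The median of 0.52 moved to 0.25 under quantile normalization, and with an array left out it ranged from 0.29 to 0.76. The count past the threshold, 0, ranged from 0 to 28 with an array left out. With the title number as a replicate block it was 3 (Rps10, Rps15 and Rpl37), with 5.8% of tested genes higher past it. Whether these numbers pair the arrays is not stated in the labels. Deviations of same-numbered arrays from their group means correlated at 0.36. With 2 arrays per group the 2 pairs mirror each other and amount to a single comparison, and hence the block is reported here alone. Quantile normalization with each array left out, chosen after seeing the data, gave medians of 0.18 and 0.29 without wild type 1 and 2 and of 0.31 and 0.21 without knockout 1 and 2, with 0, 0, 5 and 1 genes past the threshold. The share of all tested genes past the threshold in these normalized runs was not counted here. Their counts of ribosomal protein genes therefore cannot be set against a general rate. Differences changed sign under quantile normalization in Rps2 (-0.10), Rps14 (-0.043), Rpl7 (-0.013) and Rplp0 (-0.010). They did so for Rps20 with unshared probe sets (-0.36). With an array left out, the difference ranged from -0.044 to 0.52 for Rpl11, -0.31 to 0.46 for Rpl12, -0.19 to 0.62 for Rpl14, -0.051 to 0.70 for Rpl7, -0.64 to 0.73 for Rps27, -0.15 to 0.91 for Rps27l, -0.17 to 1.39 for Rps24 and -0.23 to 1.59 for Rps4l. Among named genes 15 values were reversed, 27 newly passed the threshold and 441 did neither. The cause was not tested. With 2 arrays a group, the SE of the 43 genes was 0.23 to 0.60, which limits what the test can resolve.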
